A study of Mus musculus with 6 samples.

Results

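Decorin (Dcn), lumican (Lum), osteoglycin (Ogn), matrix Gla protein (Mgp), the transcription factor Tcf21 and the retinaldehyde dehydrogenase Aldh1a1 serve as marker genes of the stromal fibroblasts of the ovary. Their RNA levels were followed here in mouse ovaries, in a model of the hyperstimulation syndrome of the ovary (OHSS). The 6 genes were taken by symbol from a table of 51826 genes, with 1 row each, and all 6 passed the filter on low counts that left 19027 genes for testing. Bulk RNA sequencing of ovaries from ICR mice, an outbred strain, gave 6 libraries, 2 in each of 3 groups. The groups were OHSS mice given nintedanib (bibf1120), an inhibitor of the receptor kinases for VEGF, PDGF and FGF; OHSS mice with no drug named; and mice labelled COH, a term the labels leave unexplained. The sources used here do not give age, drug dose, route, time of collection or hormone schedule. They also do not say whether replicates are separate mice, so p-values cover the spread among these samples, and that spread may be technical.

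The stroma of the ovary is a bed of fibroblasts that surrounds the follicles and corpora lutea and lays down collagen, proteoglycans and elastic fibres. Decorin, lumican and osteoglycin belong to the small leucine-rich proteoglycans, secreted proteins whose curved repeat domains bind collagen fibrils and set their diameter and spacing. Matrix Gla protein is a small secreted protein that needs vitamin K-dependent carboxylation to hold back calcification and that binds bone morphogenetic proteins (BMPs). Tcf21 is a basic helix-loop-helix factor of mesenchymal and gonadal progenitors, and Aldh1a1 oxidises retinaldehyde to retinoic acid. Fibroblasts respond to PDGF and FGF, and the kinases that receive these signals are targets of nintedanib.

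No member passed the threshold in any of the 3 comparisons, that is, an adjusted p below 0.05 in edgeR's quasi-likelihood F test, Benjamini-Hochberg adjusted over all genes tested. Of all genes, the same threshold was passed by 0.00526% for OHSS+nintedanib over OHSS, 0.0105% for OHSS over COH and 0.0263% for OHSS+nintedanib over COH. At an unadjusted p below 0.05 in edgeR there were 0, 1 and 2 members in that order, beside 7.42%, 8.82% and 9.7% of all genes. DESeq2 called 0, 0 and 1 members, beside 1.17%, 1.89% and 2.36% of all genes, and limma voom called 0 in each, beside 0.00526%, 0% and 0.0105%. The members did not share 1 direction. Ogn was highest in the OHSS+nintedanib libraries, intermediate in the OHSS libraries and lowest in the COH libraries, with no overlap between groups. For single pairs of groups, 36.2% (OHSS+nintedanib over OHSS), 44.1% (OHSS over COH) and 45% (OHSS+nintedanib over COH) of all genes showed no overlap. The share that set all 3 groups apart was not counted. Mgp had its 2 highest values in the COH libraries, as did Tcf21. Aldh1a1 was higher in both OHSS+nintedanib libraries than in both OHSS libraries, and Dcn was lower in both. In bulk ovary RNA, fewer fibroblasts and less RNA per fibroblast cannot be told apart.

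The libraries held 28498435 to 34716751 counts and 24712 to 25796 genes with at least 1 count. Over all genes, edgeR called 1 gene between OHSS+nintedanib and OHSS (Rpsa-ps10), 2 between OHSS and COH (Tmem170b and Ak4) and 5 between OHSS+nintedanib and COH (the same 3 genes, Aldh3b2 and Fggy). OHSS+nintedanib replicate 2 stood slightly apart: its correlations with the other libraries across genes were 0.949 to 0.957, against 0.960 to 0.975 among the other 5. Genes are not independent replicates, so these correlations describe the libraries only. The 6 members took 0.201 to 0.311% of the counts of a library. Pdgfra, the PDGF receptor that marks fibroblasts in general, was at 175 and 166 CPM (counts scaled to a common library size) in OHSS+nintedanib, 225 and 179 CPM in OHSS, and 234 and 192 CPM in COH, and all 22 of the other fibroblast markers examined, Pdgfra among them, passed the filter.

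Dcn, Lum and Ogn lie in 2 gene clusters of their family. In the GENCODE M21 annotation of mouse build GRCm38, chromosome 10 carries Dcn, Lum, Kera and Epyc side by side within 202.8 kb. Chromosome 13 carries Ecm2, Aspn, Omd and Ogn within 119.7 kb. No other protein-coding gene lies wholly between the ends of either cluster. The span of Cenpp, on the opposite strand, overlaps Ogn. Ogn was the member with the smallest p in 2 of the 3 comparisons, so the 250 bases before its RefSeq transcription start are shown, chr13:49607765-49608014 on the plus strand of GRCm38.p6, 5′ to 3′. Capitals mark E-boxes, the letters CANNTG that basic helix-loop-helix factors such as Tcf21 can bind; the motif reads the same on both strands, and CAGCTG is 1 of its forms.
Ogn promoter: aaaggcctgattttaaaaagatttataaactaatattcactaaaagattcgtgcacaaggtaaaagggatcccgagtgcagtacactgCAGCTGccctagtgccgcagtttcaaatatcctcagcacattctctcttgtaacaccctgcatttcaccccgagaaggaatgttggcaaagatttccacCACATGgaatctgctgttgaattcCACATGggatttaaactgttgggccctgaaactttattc
This window held 3 E-boxes, of which 1 was CAGCTG. Of 32851 mouse promoter windows of the same length, 66.2% held at least 1 CANNTG and 13.0% at least 1 CAGCTG, so a match is common and marks no binding site by itself. The promoter table held entries for 3 of the 6 members, Ogn, Tcf21 and Aldh1a1. The Tcf21 window held no CANNTG, and the windows of Aldh1a1 starts held 2 and 3, none of them CAGCTG.

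All levels below are CPM on library sizes scaled by edgeR's TMM method (trimmed mean of M-values), and each mean ± SD is over 2 libraries. Folds are log2 ratios fitted by edgeR in a single model of the 3 groups, with a standard error (SE), so the comparisons share libraries: the OHSS libraries enter 2 of them, as do the OHSS+nintedanib and the COH libraries. An exact permutation test of 2 against 2 libraries cannot give a two-sided p below 0.333, so it was not used for single genes.

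**Figure D1:**
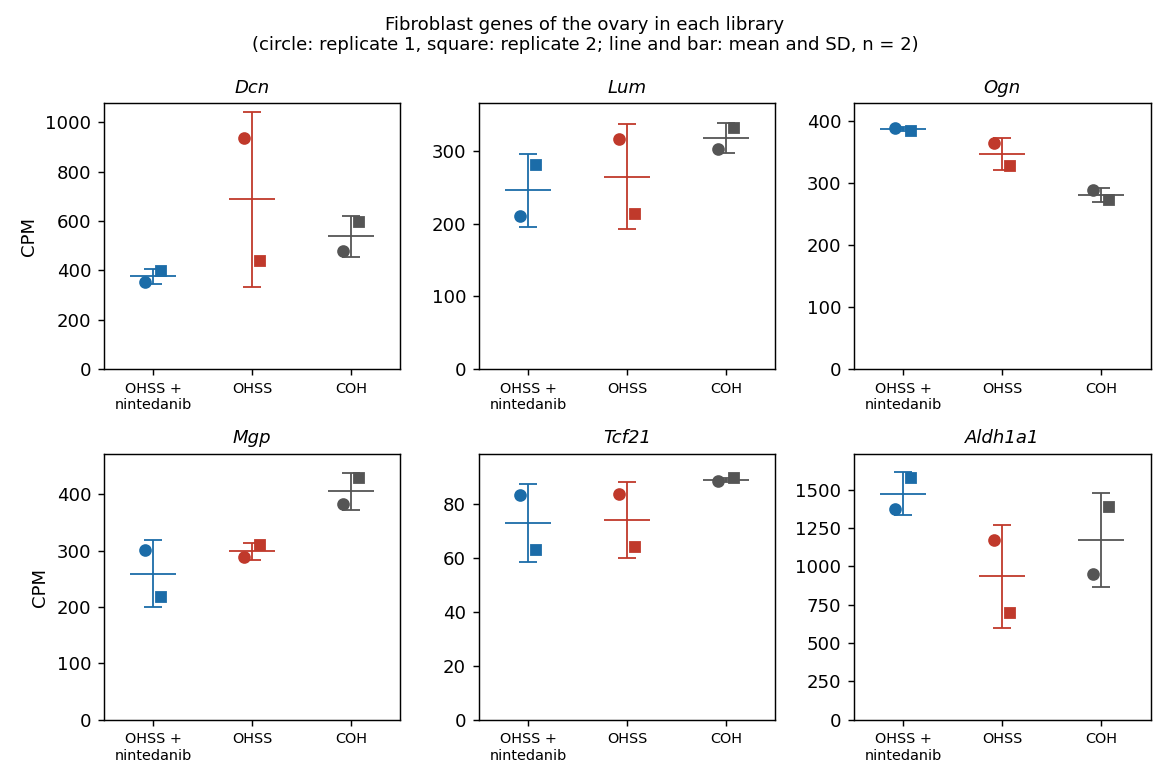
Level of each member in each library, in CPM on a linear axis that starts at 0, with circles for replicate 1, squares for replicate 2 and a line and bar for the mean and SD of each group (n = 2), and OHSS+nintedanib left, OHSS in the middle and COH right. Ogn separates the 3 groups, with 390 and 385 CPM in OHSS+nintedanib, 366 and 329 CPM in OHSS and 289 and 274 CPM in COH, while the OHSS libraries lie far apart for Dcn at 937 and 436 CPM.

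Ogn, which binds collagen fibrils and is also known as mimecan, was at 390 and 385 CPM in the OHSS+nintedanib libraries, 366 and 329 CPM in the OHSS libraries, and 289 and 274 CPM in the COH libraries. Every OHSS+nintedanib library was above every OHSS library, and every OHSS library above every COH library. Its means were 388 ± 3.66 CPM in OHSS+nintedanib, 347 ± 26.3 CPM in OHSS and 281 ± 10.6 CPM in COH. The log2 fold change of OHSS+nintedanib over COH was 0.46 (SE 0.103; 95% interval 0.20 to 0.72), with an unadjusted p of 0.00528 and an adjusted p of 0.451 by edgeR's quasi-likelihood F test, Benjamini-Hochberg adjusted. By p, Ogn stood at rank 222 of the 19027 genes in this comparison. DESeq2, run as an alternative, called Ogn here, with a log2 fold change of 0.47 and an adjusted p of 0.00520; over all alternatives of this comparison the adjusted p ran from 0.00520 to 0.965. For OHSS over COH the edgeR log2 fold change was 0.30 (SE 0.103; 95% interval 0.046 to 0.56; unadjusted p = 0.0286, adjusted p = 0.542), and for OHSS+nintedanib over OHSS it was 0.16 (SE 0.103; adjusted p = 0.753). Its direction was the same under every one of the 16 alternatives in each comparison.

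Dcn, the decorin core protein, which binds collagen and sequesters TGF-beta, was at 353 and 398 CPM in the OHSS+nintedanib libraries, 937 and 436 CPM in the OHSS libraries, and 477 and 597 CPM in the COH libraries. Both OHSS+nintedanib libraries were below all 4 others, and the OHSS group held the highest value of the study in replicate 1 and a value below both COH libraries in replicate 2. The fitted log2 fold change was -0.87 for OHSS+nintedanib over OHSS (SE 0.364; 95% interval -1.79 to 0.042; adjusted p = 0.678 by edgeR's quasi-likelihood F test, Benjamini-Hochberg adjusted). This value rested largely on OHSS replicate 1: leaving it out gave -0.24, and leaving out replicate 2 gave -1.32. For OHSS over COH it was 0.36 (SE 0.362; adjusted p = 0.796), and -0.29 without OHSS replicate 1. For OHSS+nintedanib over COH it was -0.52 (SE 0.362; adjusted p = 0.661), with a range of -0.67 to -0.35 when single libraries were left out.

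Lum, the keratan sulphate proteoglycan lumican, was at 210 and 282 CPM in the OHSS+nintedanib libraries, 316 and 214 CPM in the OHSS libraries, and 304 and 333 CPM in the COH libraries. Both OHSS+nintedanib libraries lay below both COH libraries, and the OHSS group spanned values on either side. The log2 fold changes were -0.11 for OHSS+nintedanib over OHSS (SE 0.234), -0.26 for OHSS over COH (SE 0.234) and -0.37 for OHSS+nintedanib over COH (SE 0.234), with adjusted p of 0.929, 0.767 and 0.635 in edgeR. The first reversed to 0.08 without OHSS+nintedanib replicate 1 and to 0.18 without OHSS replicate 1. Leaving out OHSS replicate 2 brought the second to -0.016, and leaving out OHSS replicate 1 to -0.56; the last ran from -0.60 without OHSS+nintedanib replicate 2 to -0.18 without its replicate 1. Lum is the neighbour of Dcn on chromosome 10, and in OHSS replicate 1 both had their highest OHSS value. The ratio of Dcn counts to Lum counts was 1.68 and 1.41 in OHSS+nintedanib, 2.96 and 2.04 in OHSS, and 1.57 and 1.79 in COH. Both OHSS libraries thus had a higher ratio than the other 4, a description of counts that depends on the lengths of both genes.

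The other members of the 2 gene clusters were present at lower levels or absent. Kera, keratocan of the cornea, had at most 2 counts in a library, and Epyc, epiphycan of growth cartilage, had 0 counts in all 6. Aspn, asporin, which binds collagen and TGF-beta and lies in the cluster of Ogn, was at 63.6 and 72.8 CPM in OHSS+nintedanib, 61.1 and 61.9 CPM in OHSS, and 45.4 and 43.0 CPM in COH. Both groups of OHSS mice lay above both COH libraries, as for Ogn. Its log2 fold change was 0.63 for OHSS+nintedanib over COH (SE 0.113; unadjusted p = 0.00207, adjusted p = 0.367 in edgeR) and 0.48 for OHSS over COH (SE 0.113; unadjusted p = 0.00699, adjusted p = 0.522 in edgeR). DESeq2 called Aspn in both. Omd, osteomodulin, lies between Aspn and Ogn and was at 11.2 and 17.3 CPM in OHSS+nintedanib, 10.03 and 11.4 CPM in OHSS, and 10.8 and 5.92 CPM in COH. Ecm2, an extracellular matrix protein at the other end of the cluster, did not follow the same order: it was at 26.5 and 29.0 CPM in OHSS+nintedanib, 21.1 and 24.1 CPM in OHSS, and 29.4 and 30.4 CPM in COH, lowest in the OHSS libraries.

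**Figure D2:**
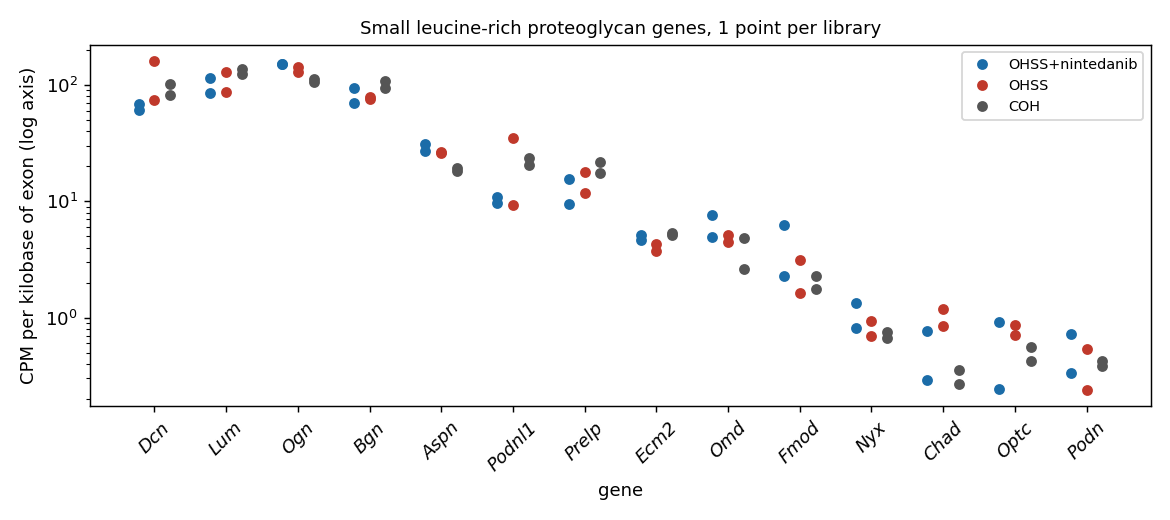
Level of each small leucine-rich proteoglycan that passed the filter, in CPM per kilobase of exon on a log axis, with 1 point per library in the order OHSS+nintedanib, OHSS, COH for each gene. Dcn, Lum, Ogn and Bgn lie highest, with Ogn between 107 and 152 CPM per kb over the 6 libraries, and Aspn between 18.3 and 30.9 CPM per kb.

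The rest of the small leucine-rich proteoglycan family gave 11 testable genes of 13. Of these, 0 were called by edgeR in any comparison; at an unadjusted p below 0.05 there were 0 for OHSS+nintedanib over OHSS, 3 for OHSS over COH and 1 for OHSS+nintedanib over COH, and limma voom called 0. DESeq2 called 0, 1 and 1 of them, Aspn both times. Means were higher for 7 and lower for 4 genes in each comparison, and the median log2 fold changes were 0.15, 0.21 and 0.39 in that order, beside 0.010, -0.0030 and -0.00099 over all genes tested. The unadjusted counts stand beside 7.42%, 8.82% and 9.7% of all genes and the DESeq2 counts beside 1.17%, 1.89% and 2.36%, here and for the lists that follow. The first and the last of these medians became -0.02 and -0.10 without OHSS+nintedanib replicate 2, and the second ran from 0.07 without COH replicate 2 to 0.46 without OHSS replicate 1. Bgn, biglycan, the closest relative of decorin, was at 577 and 425 CPM in OHSS+nintedanib, 465 and 476 CPM in OHSS, and 579 and 654 CPM in COH, and its 2 highest values were those of COH. Podnl1, podocan-like protein, was at 34.4 and 38.7 CPM in OHSS+nintedanib, 32.8 and 124 CPM in OHSS, and 72.7 and 83.3 CPM in COH. Its high OHSS library was replicate 2, whereas Dcn was high in replicate 1. Prelp, which anchors basement membranes to collagen, was at 56.1 and 34.2 CPM in OHSS+nintedanib, 42.3 and 64.9 CPM in OHSS, and 63.7 and 78.7 CPM in COH, and did not separate OHSS from either other group. Chad, chondroadherin, stayed below 2 CPM in every library.

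Mgp, the carboxylated inhibitor of calcification, was at 301 and 217 CPM in the OHSS+nintedanib libraries, 289 and 310 CPM in the OHSS libraries, and 382 and 428 CPM in the COH libraries. Both COH libraries were above all 4 libraries of OHSS mice, and the OHSS+nintedanib and OHSS libraries overlapped. Its means were 259 ± 59.6 CPM in OHSS+nintedanib, 299 ± 15.0 CPM in OHSS and 405 ± 32.5 CPM in COH. For OHSS+nintedanib over COH the log2 fold change was -0.64 (SE 0.179; 95% interval -1.09 to -0.20; unadjusted p = 0.0135, adjusted p = 0.491 by edgeR's quasi-likelihood F test, Benjamini-Hochberg adjusted). It was -0.43 without OHSS+nintedanib replicate 2 and -0.90 without replicate 1. For OHSS over COH it was -0.44 (SE 0.178; 95% interval -0.89 to 0.010; adjusted p = 0.575), and for OHSS+nintedanib over OHSS -0.21 (SE 0.178; adjusted p = 0.811), which became 0.011 without OHSS+nintedanib replicate 2 and -0.47 without its replicate 1.

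The genes around Mgp, those of vitamin K-dependent carboxylation, other Gla proteins, and BMP ligands, receptors and antagonists, gave 20 testable genes of 21. edgeR called 0 of them in any comparison, as did limma voom; 6, 2 and 4 had an unadjusted p below 0.05 for OHSS+nintedanib over OHSS, OHSS over COH and OHSS+nintedanib over COH, and DESeq2 called 2, 2 and 4, beside 7.42%, 8.82% and 9.7% of all genes by unadjusted p and 1.17%, 1.89% and 2.36% by DESeq2. The medians were 0.11, 0.19 and 0.20 in that order, with 12, 14 and 11 higher means; the first was -0.08 without OHSS+nintedanib replicate 2, the second ran from 0.10 without OHSS replicate 1 to 0.28 without COH replicate 1, and the last was -0.03 without COH replicate 2. Vkorc1, the reductase that regenerates vitamin K, was at 20.3 and 19.2 CPM in OHSS+nintedanib, 40.3 and 35.2 CPM in OHSS, and 23.6 and 19.6 CPM in COH. Both OHSS libraries stood above all 4 others, with a log2 fold change of -0.94 for OHSS+nintedanib over OHSS (SE 0.150; adjusted p = 0.465 in edgeR) and 0.81 for OHSS over COH (SE 0.150; adjusted p = 0.430 in edgeR). Bmpr1b, a type I BMP receptor, was at 57.1 and 90.5 CPM in OHSS+nintedanib, 32.5 and 40.6 CPM in OHSS, and 29.3 and 28.02 CPM in COH. Bmpr2, the type II BMP receptor, was at 379 and 457 CPM in OHSS+nintedanib, 267 and 315 CPM in OHSS, and 246 and 257 CPM in COH, so both receptors were highest in the OHSS+nintedanib libraries. Granulosa cells also express both receptors, and the summed level of 10 granulosa markers was 5353 to 6003 CPM in OHSS+nintedanib, 3630 to 4198 CPM in OHSS and 4476 to 4568 CPM in COH, whose part in these values was not tested. All 10 of these markers had a higher mean in OHSS+nintedanib than in OHSS, beside 51.5% of all genes, and 7 were higher without overlap, beside 19.2%. In OHSS+nintedanib over COH, 8 had a higher mean, beside 49.9% of all genes, and 2 a lower mean. In OHSS over COH, 6 had a higher mean, beside 49.6% of all genes, and 4 a lower mean. Gja1, 1 of these 4, was at 367 and 934 CPM in OHSS and 1425 and 1543 CPM in COH. Ahsg, fetuin, a circulating inhibitor of calcification, was at 8.36 and 6.89 CPM in OHSS+nintedanib, 5.40 and 6.20 CPM in OHSS, and 2.78 and 2.42 CPM in COH. Bmp6, a BMP ligand, was at 23.6 and 26.9 CPM in OHSS+nintedanib, 25.1 and 71.0 CPM in OHSS, and 27.0 and 14.7 CPM in COH, and its high value was again OHSS replicate 2 alone.

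Tcf21 was at 83.3 and 62.8 CPM in the OHSS+nintedanib libraries, 83.9 and 64.0 CPM in the OHSS libraries, and 88.4 and 89.5 CPM in the COH libraries. The COH libraries were the 2 highest and nearly equal, while each group of OHSS mice had 1 library near 84 and 1 near 63 CPM. The log2 fold changes were -0.02 for OHSS+nintedanib over OHSS (SE 0.193; 95% interval -0.50 to 0.47), -0.27 for OHSS over COH (SE 0.193) and -0.28 for OHSS+nintedanib over COH (SE 0.193), with adjusted p of 0.987, 0.717 and 0.653 in edgeR. The direction of the first flipped to 0.055 when counts were scaled by library size only, to 0.17 without OHSS+nintedanib replicate 2 and likewise to 0.17 without OHSS replicate 1. The second ran from -0.46 without OHSS replicate 1 to -0.09 without OHSS replicate 2, and the last from -0.51 without OHSS+nintedanib replicate 1 to -0.09 without its replicate 2. Tcf21 overlaps the span of Gm10824, a transcript of the opposite strand with which it shares 0 exon bases. Ogn likewise overlaps the span of Cenpp with 0 shared exon bases. Whether the counting used strand is not given in the sources used here.

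Of 18 mesenchymal transcription factors, 17 could be tested, and edgeR and limma voom called 0 in any comparison. At an unadjusted p below 0.05 edgeR had 1, 2 and 2 for OHSS+nintedanib over OHSS, OHSS over COH and OHSS+nintedanib over COH, and DESeq2 called 1, 1 and 0, Wt1 both times. Their medians were -0.02, -0.07 and -0.05 in that order; the first was 0.06 with scaling by library size only. Leaving out single libraries gave ranges of -0.13 to 0.17, -0.27 to 0.0077 and -0.17 to 0.15, so none of the 3 medians kept its sign. Wt1, a factor of gonadal mesenchyme, surface epithelium and granulosa cells, was at 40.9 and 34.7 CPM in OHSS+nintedanib, 61.8 and 67.0 CPM in OHSS, and 38.2 and 31.9 CPM in COH. The OHSS libraries were the 2 highest, with a log2 fold change of -0.77 for OHSS+nintedanib over OHSS (SE 0.147; adjusted p = 0.605 in edgeR) and 0.88 for OHSS over COH (SE 0.148; adjusted p = 0.425 in edgeR). The summed level of 10 surface epithelium markers was 45.1 to 94.9 CPM in OHSS+nintedanib, 54.8 to 90.3 CPM in OHSS and 79.2 to 137 CPM in COH, with all 10 detected in every library. Prrx1, a homeobox factor of fibroblasts, was at 39.8 and 39.4 CPM in OHSS+nintedanib, 39.5 and 43.7 CPM in OHSS, and 52.9 and 51.7 CPM in COH, where both values lay above the other 4. Its relative Prrx2 was at 13.9 and 14.9 CPM in OHSS+nintedanib, 12.9 and 27.2 CPM in OHSS, and 24.7 and 42.2 CPM in COH. The mesodermal factors Osr1, Twist2, Lhx9 and Meox1, also among the smallest p in a comparison, were below 15 CPM in every library and had adjusted p of 0.536 to 0.944 in edgeR.

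Aldh1a1 was at 1375 and 1574 CPM in the OHSS+nintedanib libraries, 1174 and 699 CPM in the OHSS libraries, and 954 and 1391 CPM in the COH libraries. Both OHSS+nintedanib libraries were above both OHSS libraries, and COH overlapped with each of the other groups. Its means were 1475 ± 141 CPM in OHSS+nintedanib, 937 ± 337 CPM in OHSS and 1172 ± 309 CPM in COH. The log2 fold change of OHSS+nintedanib over OHSS was 0.66 (SE 0.305; 95% interval -0.11 to 1.42; adjusted p = 0.705 by edgeR's quasi-likelihood F test, Benjamini-Hochberg adjusted); leaving out OHSS replicate 2 gave 0.33, and leaving out OHSS replicate 1 gave 1.06. It was -0.32 for OHSS over COH (SE 0.304; adjusted p = 0.779) and 0.33 for OHSS+nintedanib over COH (SE 0.304; adjusted p = 0.736). The first of these ran from -0.73 without OHSS replicate 1 to -0.0043 without OHSS replicate 2, and the second from 0.08 without COH replicate 1 to 0.62 without COH replicate 2. Aldh1a1 is also expressed outside the stroma in many tissues, so its level here need not be that of fibroblasts alone. Which cells of these ovaries gave its reads was not tested.

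Aldh1a1 has a close paralog, Aldh1a7, on the same chromosome 19, and reads from the pair could be mixed. Their coding sequences are 1506 bases each and 91.63% identical. A stretch of 90 coding bases, from base 310 to base 399 counted from the A of the start codon in the GENCODE M21 transcripts, is shown because it holds 19 differences; capitals mark the positions where the genes differ.
Aldh1a1: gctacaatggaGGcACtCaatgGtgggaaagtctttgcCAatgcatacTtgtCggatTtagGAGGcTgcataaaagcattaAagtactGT
Aldh1a7: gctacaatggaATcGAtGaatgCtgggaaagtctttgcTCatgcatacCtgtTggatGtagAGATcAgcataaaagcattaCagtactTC
Of the 1363 windows of 144 bases, about the mean read length, in the Aldh1a1 coding sequence, 0 occurred unchanged in Aldh1a7, and a window had 2 to 27 mismatches with a median of 11. The longest identical run was 100 bases, so a shorter read within it would match both genes. Only coding bases were compared, while the exons of Aldh1a1 total 4937 bases. Aldh1a7 was at 1.77 and 8.82 CPM in OHSS+nintedanib, 3.70 and 6.60 CPM in OHSS, and 0.703 and 3.89 CPM in COH, small beside Aldh1a1 in every library. How reads that match several genes were counted is not given in the sources used here.

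The other retinoic acid genes, covering the transport and oxidation of retinol, the breakdown of retinoic acid and its receptors, gave 20 testable genes of 22. edgeR and limma voom called 0 in any comparison; 3, 4 and 6 had an unadjusted p below 0.05 in edgeR for OHSS+nintedanib over OHSS, OHSS over COH and OHSS+nintedanib over COH, and DESeq2 called 0, 1 and 2. The medians were 0.05, -0.06 and -0.24 in that order; the first was -0.05 without OHSS+nintedanib replicate 2 the second was 0.04 without COH replicate 1, and the last ran from -0.33 without OHSS+nintedanib replicate 1 to -0.14 without COH replicate 2. Aldh1a2, the retinaldehyde dehydrogenase of embryonic mesoderm, was at 132 and 145 CPM in OHSS+nintedanib, 218 and 144 CPM in OHSS, and 247 and 248 CPM in COH, highest in COH. Its log2 fold change for OHSS+nintedanib over COH was -0.84 (SE 0.206; adjusted p = 0.469 in edgeR), against 0.33 for Aldh1a1. Aldh1a3, the third enzyme of this kind, was at 9.68 and 8.76 CPM in OHSS+nintedanib, 7.91 and 5.91 CPM in OHSS, and 11.3 and 11.1 CPM in COH. Dhrs3, which reduces retinaldehyde back to retinol, was at 76.4 and 66.6 CPM in OHSS+nintedanib, 61.4 and 58.2 CPM in OHSS, and 78.0 and 92.9 CPM in COH, lowest in OHSS and highest in COH. Cyp26b1, which degrades retinoic acid, was at 11.2 and 13.3 CPM in OHSS+nintedanib, 7.04 and 10.7 CPM in OHSS, and 5.68 and 2.31 CPM in COH, highest in OHSS+nintedanib and lowest in COH. Rdh10, which oxidises retinol, was at 21.4 and 21.9 CPM in OHSS+nintedanib, 24.9 and 32.3 CPM in OHSS, and 26.8 and 27.1 CPM in COH. Bco1 and Dhrs9 stayed below 4 CPM in every library.

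Taking the comparisons one by one, for OHSS+nintedanib over OHSS 0 of 6 members were called by edgeR, against 0.00526% of all genes tested, and 0 had an unadjusted p below 0.05, against 7.42%. The libraries did not overlap for Ogn and Aldh1a1, which were higher, against 19.2% of all genes, and for Dcn, which was lower, against 16.9%. The 3 of 6 members without overlap stand beside 36.2% of all genes tested. Means were higher for 2 members and lower for 4, beside 51.5% and 48.5% of all genes. The median over the 6 members was -0.06, and 0.18 without OHSS replicate 1.

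For OHSS over COH, 0 of 6 members were called by edgeR, against 0.0105% of all genes tested, and 1, Ogn, had an unadjusted p below 0.05, against 8.82%. Ogn was higher without overlap, against 21.2% of all genes, and Mgp and Tcf21 were lower without overlap, against 22.9%; for both directions together this was 3 of 6 members and 44.1% of all genes. Means were higher for 2 members and lower for 4, beside 49.6% and 50.4% of all genes. The median over the members was -0.27, and -0.010 without OHSS replicate 2.

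For OHSS+nintedanib over COH, 0 of 6 members were called by edgeR, against 0.0263% of all genes tested, and 2, Ogn and Mgp, had an unadjusted p below 0.05, against 9.7%. Ogn was higher without overlap, against 22.3% of all genes, and Dcn, Lum, Mgp and Tcf21 were lower without overlap, against 22.7%; together this was 5 of 6 members and 45% of all genes. Means were again higher for 2 members and lower for 4, beside 49.9% and 50.1% of all genes. The median over the members was -0.33, with a range of -0.37 to -0.26 when single libraries were left out.

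**Figure D3:**
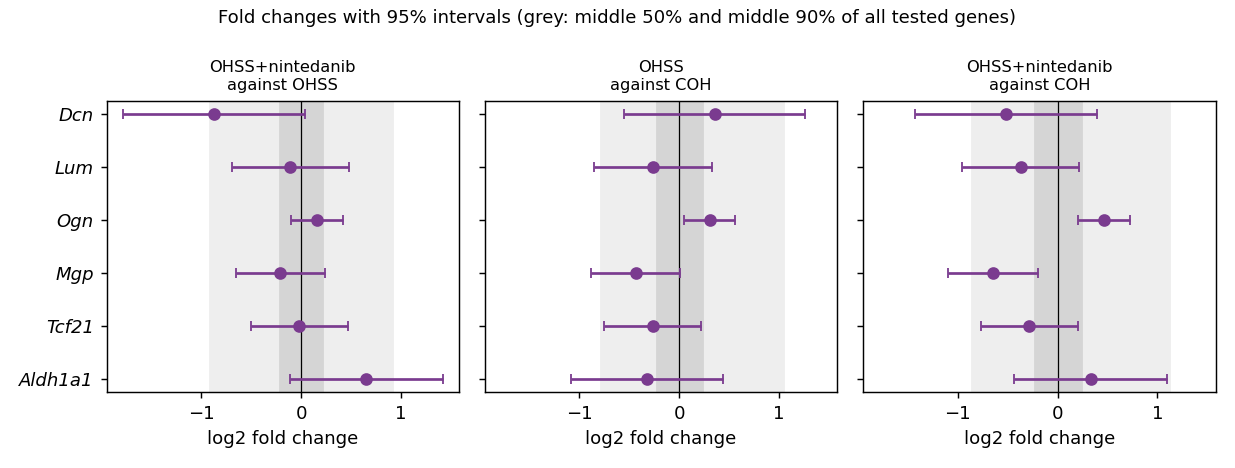
Log2 fold change of each member in each comparison, with bars for the 95% interval of edgeR's quasi-likelihood fit (3 groups of 2 libraries) and a line at 0. Grey bands show the central ranges of all tested genes, for example -0.22 to 0.25 (quartiles) and -0.86 to 1.12 (the wider band) for OHSS+nintedanib over COH. The intervals of Ogn lie above 0 for OHSS+nintedanib over COH (0.20 to 0.72) and OHSS over COH (0.046 to 0.56), and that of Mgp lies below 0 for OHSS+nintedanib over COH (-1.09 to -0.20).

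The spread between the 2 libraries of a group differed greatly between members. The OHSS libraries differed by 1.103 on the log2 scale for Dcn, 0.75 for Aldh1a1 and 0.56 for Lum, all higher in replicate 1, but by 0.10 for Mgp and 0.15 for Ogn. Among the 2150 genes with a mean of at least 100 CPM, the median gap between the OHSS libraries was 0.16 and the 90th percentile was 0.63. Dcn and Aldh1a1 thus lay beyond that percentile. In COH, the gap of Aldh1a1 was 0.54 against a 90th percentile of 0.33, and Tcf21, which lies below 100 CPM and so outside that set of genes, had a gap of 0.018. In OHSS+nintedanib, the gap was 0.019 for Ogn, 0.47 for Mgp and 0.42 for Lum, against a 90th percentile of 0.57, and 0.41 for Tcf21. The summed level of the 6 members was 2713 and 2919 CPM in OHSS+nintedanib, 3166 and 2051 CPM in OHSS, and 2494 and 3112 CPM in COH, so the sums of the groups overlapped.

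The Dcn to Lum ratio above used counts, and Aldh1a7 and the cluster neighbours were described in CPM. Genes were ranked by level only as CPM per kilobase of exon (the union of all exons in GENCODE M21), a scale that understates genes with long rare exons. On that scale Mgp ranked first among the members in all 4 OHSS and COH libraries, and Aldh1a1 ranked first in both OHSS+nintedanib libraries, with 279 and 319 CPM per kb against 254 and 183 for Mgp. In OHSS replicate 1 the top 2 were close, with 243 CPM per kb for Mgp and 238 for Aldh1a1. Tcf21 ranked last in all 6 libraries, at 26.7 to 38.1 CPM per kb. Among the proteoglycans, Ogn averaged 151 ± 1.43, Lum 101 ± 20.6 and Dcn 64.3 ± 5.45 CPM per kb in OHSS+nintedanib (SD, n = 2 each). In OHSS, Ogn averaged 135 ± 10.2, Dcn 118 ± 60.7 and Lum 108 ± 29.6 CPM per kb, neighbours that did not differ beyond their spread. In COH the order was Lum at 130 ± 8.41, Ogn at 110 ± 4.13 and Dcn at 92.0 ± 14.5 CPM per kb.

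**Figure D4:**
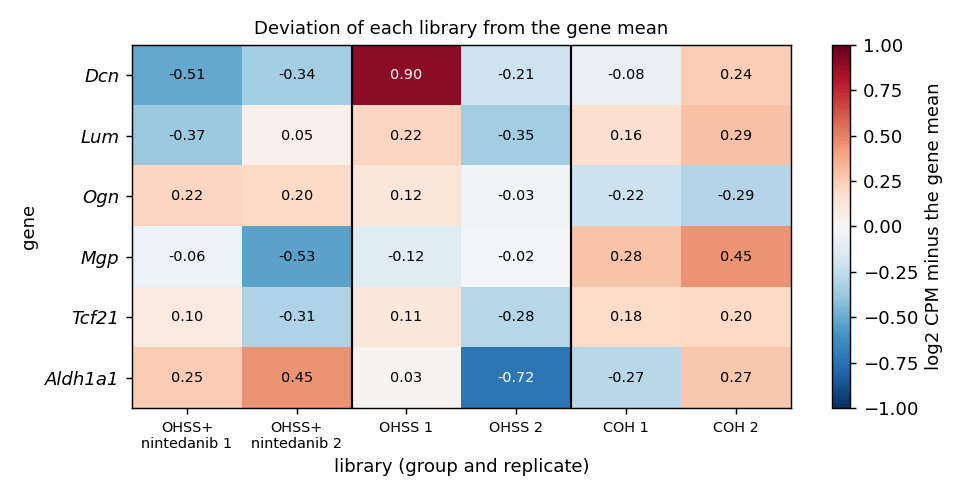
Heat map of each member in each library as log2 CPM minus the gene's own mean over the 6 libraries, with members down the page, blue for low, red for high, and OHSS+nintedanib, OHSS and COH libraries from left to right. Dcn in OHSS replicate 1 stands out from its other libraries, and the rows of Mgp and Tcf21 are the most alike (root mean square difference 0.211).

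Likeness of profiles was measured as the root mean square difference of log2 CPM centred on each gene's own mean, over the 6 libraries. Among the members, Mgp and Tcf21 were nearest at 0.211, followed by Lum and Tcf21 at 0.249, and Dcn and Aldh1a1 were farthest apart at 0.616. The pair in the chromosome 10 cluster, Dcn and Lum, was at 0.344. Outside the members, in a pool of 11498 genes with a mean of at least 5 CPM, the nearest to Dcn were Fpgs at 0.125, Ccdc80, a secreted matrix protein, at 0.175 and Dcaf10 at 0.176. Only 38 genes of the pool lay within 0.25 of Dcn and 126 within 0.25 of Aldh1a1, whose nearest were Itih2 at 0.0928, a protein that binds hyaluronan, Sybu at 0.108 and Atg7 at 0.124. The nearest to Mgp were Cd248 at 0.0634, the stromal surface protein endosialin, Immp1l at 0.0676 and Prmt2 at 0.0717. Those nearest to Lum were Klc2, Phf23 and Ssbp2, at 0.0692 to 0.0711. Ogn was nearest to Ubr4, Rbck1 and Miip, at 0.0374 to 0.0386, and Tcf21 to Tmem216, Mrpl28 and Blvra, at 0.0313 to 0.0413. Within 0.25 lay 4810 genes of the pool for Ogn, 4708 for Tcf21, 2163 for Lum and 1394 for Mgp, so nearness to these 4 members is common, and the 6 points share their libraries and their depth.

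The other fibroblast markers were 22 genes, all tested. edgeR and limma voom called 0 in any comparison; at an unadjusted p below 0.05 edgeR had 5, 5 and 10 for OHSS+nintedanib over OHSS, OHSS over COH and OHSS+nintedanib over COH, and DESeq2 called 2, 1 and 5. Over all genes the shares were 7.42%, 8.82% and 9.7% by unadjusted p and 1.17%, 1.89% and 2.36% by DESeq2. For OHSS+nintedanib over COH, 19 of the 22 means were lower, beside 50.1% of all genes tested, and 12 were lower without overlap, beside 22.7%. The median log2 fold changes were -0.18, -0.09 and -0.35 in the same order of comparisons. With 1 library left out the first ran from -0.31 (without OHSS+nintedanib replicate 1) to -0.09 (without OHSS replicate 1), the second reached -0.20 (without OHSS replicate 2) and the last -0.60 (without OHSS+nintedanib replicate 1), with no change of sign. Their summed level was 2037 to 2298 CPM in OHSS+nintedanib, 2593 to 2595 CPM in OHSS and 2795 to 2822 CPM in COH, ranges that do not overlap. Islr, a marker of mesenchymal stromal cells, was at 80.9 and 87.0 CPM in OHSS+nintedanib, 121 and 96.7 CPM in OHSS, and 157 and 154 CPM in COH, which sets the 3 groups apart in the order opposite to Ogn. Its log2 fold change for OHSS+nintedanib over COH was -0.89 (SE 0.136; unadjusted p = 0.000927, adjusted p = 0.299 in edgeR). Gas1, a membrane protein of quiescent fibroblasts, was at 79.5 and 95.4 CPM in OHSS+nintedanib, 120 and 124 CPM in OHSS, and 128 and 127 CPM in COH. Dpt, dermatopontin, which binds decorin and collagen, was at 9.92 and 7.89 CPM in OHSS+nintedanib, 22.8 and 20.4 CPM in OHSS, and 15.9 and 30.0 CPM in COH, so both genes were lowest in OHSS+nintedanib. Ly6a, the Sca-1 antigen of adventitial fibroblasts and also of endothelial cells, ran the other way, with 30.5 and 67.8 CPM in OHSS+nintedanib, 15.3 and 8.28 CPM in OHSS, and 8.29 and 10.5 CPM in COH. The summed level of 9 endothelial markers was 730 to 751 CPM in OHSS+nintedanib, 577 to 602 CPM in OHSS and 682 to 697 CPM in COH, and its part in the level of Ly6a was not tested. The microfibril proteins Mfap4 and Mfap5 were highest in COH: Mfap4 was at 88.3 and 65.2 CPM in OHSS+nintedanib, 72.8 and 87.2 CPM in OHSS, and 122 and 132 CPM in COH, and Mfap5 at 21.5 and 17.5 CPM in OHSS+nintedanib, 13.6 and 16.5 CPM in OHSS, and 33.0 and 25.8 CPM in COH.

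The collagens and TGF-beta genes that the proteoglycans bind or act with were 24 genes, all tested. edgeR and limma voom called 0 in any comparison; at an unadjusted p below 0.05 edgeR had 4, 4 and 0 in the same order of comparisons, and DESeq2 called 2, 0 and 0, with the shares of all genes as above. The means were higher for 15 and lower for 9 genes in OHSS+nintedanib over OHSS, higher for 4 and lower for 20 in OHSS over COH, and higher for 7 and lower for 17 in OHSS+nintedanib over COH. The medians were 0.12, -0.18 and -0.14. Their signs held under every alternative, but the first was 0.03 without OHSS+nintedanib replicate 1 and 0.18 without OHSS replicate 1, and the last was -0.23 without OHSS+nintedanib replicate 1 and -0.05 without replicate 2. Col3a1, a fibril collagen of the stroma, was at 1159 and 1155 CPM in OHSS+nintedanib, 1097 and 909 CPM in OHSS, and 1374 and 1418 CPM in COH. Col1a1, the main chain of type I collagen, was at 863 and 806 CPM in OHSS+nintedanib, 727 and 599 CPM in OHSS, and 920 and 823 CPM in COH, so both collagens were lowest in the OHSS libraries. Plod1, a lysyl hydroxylase for collagen, was at 123 and 120 CPM in OHSS+nintedanib, 91.7 and 88.3 CPM in OHSS, and 112 and 111 CPM in COH, with a log2 fold change of 0.44 for OHSS+nintedanib over OHSS (SE 0.0891; adjusted p = 0.625 in edgeR). Adamts2, which trims procollagen, was at 161 and 156 CPM in OHSS+nintedanib, 119 and 120 CPM in OHSS, and 140 and 130 CPM in COH, with the same order of groups as Plod1. Tnxb, tenascin-X, which links collagen fibrils together with decorin, was at 234 and 119 CPM in OHSS+nintedanib, 318 and 748 CPM in OHSS, and 198 and 228 CPM in COH. Its highest value was in OHSS replicate 2, where Dcn was at 436 CPM, against 937 CPM in OHSS replicate 1. Col6a1, a chain of the beaded filament collagen, was at 737 and 746 CPM in OHSS+nintedanib, 1024 and 805 CPM in OHSS, and 893 and 985 CPM in COH, lowest in OHSS+nintedanib.

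**Figure D5:**
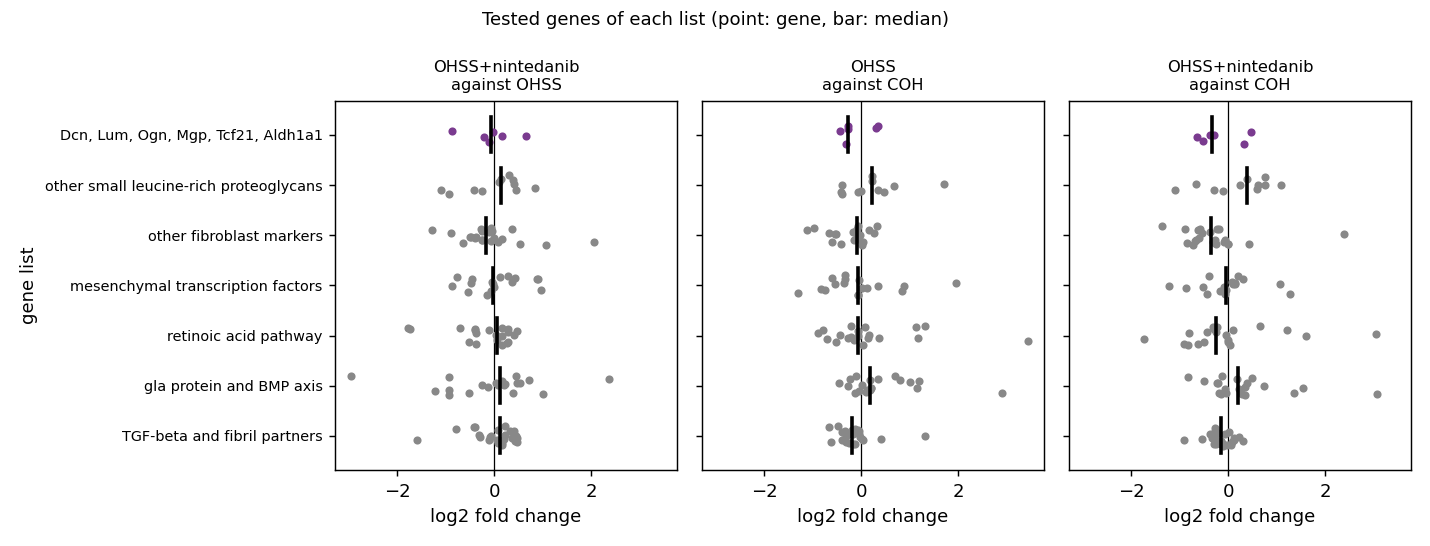
Log2 fold changes of the members and of 6 companion lists in the 3 comparisons, with 1 point per tested gene and a black bar at the median of each list. The other fibroblast markers have medians of -0.18, -0.09 and -0.35 and the small leucine-rich proteoglycans 0.15, 0.21 and 0.39, for OHSS+nintedanib over OHSS, OHSS over COH and OHSS+nintedanib over COH.

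Markers of other ovarian cells were set beside these values. Smooth muscle and pericyte markers, 10 genes, summed to 1481 to 1729 CPM in OHSS+nintedanib, 1668 to 1731 CPM in OHSS and 1553 to 1611 CPM in COH. Theca markers, 8 genes led by the steroid enzymes that luteal cells share, summed to 17150 to 22030 CPM in OHSS+nintedanib, 21980 to 23190 CPM in OHSS and 19680 to 21240 CPM in COH. In OHSS over COH, 4 of these had a higher mean, beside 49.6% of all genes, and 4 a lower mean. Cyp17a1, 1 of the 4 higher, did not follow the sum. It was at 2464 and 734 CPM in OHSS+nintedanib, 1230 and 865 CPM in OHSS, and 214 and 459 CPM in COH. Every library of OHSS mice thus lay above both COH libraries for Cyp17a1. Luteal markers, 7 genes, summed to 10730 to 11310 CPM in OHSS+nintedanib, 14200 to 17950 CPM in OHSS and 9404 to 9637 CPM in COH, and macrophage markers to 316 to 356 CPM in OHSS+nintedanib, 403 to 579 CPM in OHSS and 529 to 575 CPM in COH. All 9 macrophage markers had a lower mean in OHSS+nintedanib than in OHSS, beside 48.5% of all genes, and than in COH, beside 50.1%. In OHSS over COH, 7 of the 9 had a higher mean, beside 49.6% of all genes, and 2 a lower mean. Lyz2, 1 of these 2, was at 167 and 137 CPM in OHSS and 240 and 262 CPM in COH. Adipocyte markers, 8 genes that include lipid genes of other cells, summed to 151 to 198 CPM in OHSS+nintedanib, 194 to 243 CPM in OHSS and 155 to 176 CPM in COH, and of the defining genes Lep had 0 counts in every library and Adipoq stayed below 1 CPM. Oocyte markers, 8 genes, summed to 146 to 269 CPM in OHSS+nintedanib, 156 to 189 CPM in OHSS and 197 to 278 CPM in COH, and erythroid markers, 5 genes, to 84.0 to 156 CPM in OHSS+nintedanib, 60.4 to 173 CPM in OHSS and 218 to 219.5 CPM in COH. Mitochondrial transcripts and immediate early genes were also set beside the members. Whether they report RNA state or handling here was not tested. The 12 mitochondrial transcripts summed to 49930 to 53580 CPM in OHSS+nintedanib, 64250 to 65850 CPM in OHSS and 48930 to 57420 CPM in COH. All 12 were lower without overlap in OHSS+nintedanib than in OHSS, beside 16.9% of all genes tested. In OHSS over COH, 11 had a higher mean, beside 49.6% of all genes, and 9 were higher without overlap, beside 21.2%. The 8 immediate early genes summed to 651 to 1423 CPM in OHSS+nintedanib, 546 to 725 CPM in OHSS and 947 to 1282 CPM in COH. Of these, 7 had a lower mean in OHSS than in COH, beside 50.4% of all genes. The part of any of these in the values of the 6 members and their companion lists was not tested.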

How the data were processed

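Ovary RNA of 6 mouse libraries was sequenced. The table holds raw counts per gene, deposited by the authors, with 1 column per library, per the file headers; no row lacked a gene. Genome build mm8, StringTie 1.3.3b, HISAT2 2.1.0 and Trimmomatic 0.36 are named, with no role, per the submitters' processing notes; the sources used here do not give the counting program, annotation or use of strand. Of the 51826 gene IDs, 99.63% matched GENCODE M21, which gave gene lengths and neighbours. Deposited read summaries give read totals per library; counts came to 72.1 to 74.0% of reads, or 144.2 to 148% of pairs, so a pair seems to count as 2, and counting error exceeds what the count gives.

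Groups came from the labels. edgeR 4.0.16 (R 4.3.3) was fitted to all genes passing filterByExpr, with TMM scaling and 1 term for group, and p-values were adjusted by Benjamini-Hochberg over 19027 genes; a gene was called below 0.05. CPM profiles used a prior count of 2. Alternatives were other scalings and filters, DESeq2 1.42.0, limma voom (limma 3.58.1), a replicate block, only the groups compared, a robust prior and each library left out. The code was tested on simulated data. Replicates of a group were not the same library deposited more than once. The members and the 19 gene lists were chosen with earlier results of these data known, so lists are described by counts and medians without a test. Named genes were all members, the 3 most like each member, the cluster neighbours, the paralog and, per companion list and comparison, the 3 smallest p, of which 1 gene is not reported here; Pdgfra and Bgn were added after their values were seen. Promoter sequences are from RefSeq (GRCm38.p6) and coding sequences from GENCODE M21.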

Additional observations from a re-analysis of the deposited data

How the results depend on the processing

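Every result was recomputed under 16 alternatives. Directions reversed for Tcf21 in OHSS+nintedanib over OHSS with scaling by library size only (0.055), and when 1 library was left out for Lum (range -0.36 to 0.18), Mgp (-0.47 to 0.011) and Tcf21 (-0.24 to 0.17) in OHSS+nintedanib over OHSS and Dcn (-0.29 to 0.80) in OHSS over COH. The median of the members ranged from -0.17 to 0.18, -0.42 to -0.010 and -0.37 to -0.26 with 1 library left out, for OHSS+nintedanib over OHSS, OHSS over COH and OHSS+nintedanib over COH. No member was called under any alternative except Ogn in OHSS+nintedanib over COH by DESeq2 (1 member). The count of genes called over the whole table depended on the method: for OHSS+nintedanib over OHSS the 1 call became 2 without a filter, 223 with DESeq2, 0 with the replicate block, 0 with only the groups compared and 0 to 30 with 1 library left out. For OHSS over COH the 2 calls became 4 without a filter, 360 with DESeq2, 0 with limma voom, 1 with the replicate block and 0 with only the groups compared. For OHSS+nintedanib over COH the 5 calls became 449 with DESeq2, 2 with limma voom, 2 with the replicate block, 2 with only the groups compared and 0 to 53 with 1 library left out. DESeq2 called 115 higher and 108 lower, 230 higher and 130 lower, and 316 higher and 133 lower genes in that order of comparisons. The cause was not tested. Same-numbered libraries of different groups did not deviate together (correlations -0.0023, -0.00072 and 0.048 across genes). This cannot exclude a pairing by number with little effect on RNA, which the sources used here do not settle. The replicate block changed no call of a member. With 2 libraries a group, single libraries set the direction of Lum, Mgp, Tcf21 and Dcn in the comparisons named above and moved the size of Aldh1a1.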
